A study of Rattus norvegicus and Bos taurus with 6 samples.

Results

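Potassium channel genes were taken as every gene whose symbol starts with Kcn, in any case, together with Abcc8 and Abcc9, the sulfonylurea receptors that complete the ATP-sensitive potassium channel. The rule found 95 gene rows among 38697 genes in the 4 rat Parse libraries, 94 among 25629 genes in the rat 10x Genomics library and 93 among 36075 genes in the cow library. Across the series there were 97 symbols, of which 88 were listed in all 3 gene tables. At least 1 transcript was counted for 59 of them in the 10x library, for 94, 92, 91 and 93 in mesPVAT, RP fat, taPVAT and BAT of the Parse run, and for 90 in the cow. At least 30 transcripts were counted for 11, 45, 45, 45, 45 and 66, in the same order.

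Single-nucleus RNA sequencing was carried out on snap-frozen fat of animals labelled normal, with 1 library per condition. Rat libraries came from male SS/HsdMcwiCrl (Dahl SS) rats kept on normal chow: mesenteric perivascular fat (mesPVAT) and retroperitoneal fat (RP fat), which are white depots, and thoracic aortic perivascular fat (taPVAT) and subscapular brown fat (BAT), which are brown depots. The cow library came from subcutaneous white fat (WAT) of the flank of female lactating Holstein cattle. These 5 tissues were barcoded with the Parse Evercode kit in 2 sublibraries, the second batch of the labels. A further mesPVAT library was made with 10x Genomics chemistry in the first batch, with another isolation protocol and sorting of DAPI-stained nuclei, and taPVAT was spun more slowly than the white depots. The number and age of the animals behind a library were not given in the sources used here. The white rat Parse libraries are named by their labels, although the depth the study describes for each did not match the deposited library of that name. The study gives RP fat a higher maximum of transcripts in a nucleus than mesPVAT. The deposited maxima were 41374 in mesPVAT and 5611 in RP fat. Comparisons of mesPVAT with RP fat, and of mesPVAT between kits, rest on these labels.

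The libraries held 2297 to 5887 nuclei, and the median nucleus held 161 to 346 transcripts (unique molecular identifiers, UMIs) in the white rat libraries, 1246 and 1706 in the brown ones and 3530 in the cow. Total UMIs ranged from 845316 in RP fat to 16827260 in the cow. No barcode was shared between libraries (0 shared). Levels are given as CPM, the UMIs of a gene over all UMIs of the same nuclei on the usual depth-scaled range, with exact Poisson 95% intervals that cover counting error only. Without a second library per condition no test between conditions was possible, so no p-value is given and a gene was called by size alone, at 2-fold or more. Nuclei were put into classes by 5 gate genes: a nucleus positive for Plin1 and for none of the other gate genes was adipocyte-gated, and likewise Ptprb marked endothelial, Pdgfra progenitor, Notch3 mural and Ptprc immune nuclei. Mural cells are the smooth muscle cells and pericytes of the vessel wall. Other known markers of a class were checked where they held at least 10 UMIs. They were highest in their own class for 43 of 44 in taPVAT, 43 of 43 in BAT and 40 of 42 in the cow. The counts were 32 of 41 in mesPVAT, 20 of 32 in RP fat and 30 of 33 in the 10x library. For adipocyte markers alone they were 6 of 9 in mesPVAT, 5 of 7 in RP fat and 8 of 9 in the 10x library. Adipoq and Fasn were under 10 UMIs in RP fat and could not be checked there. For mural markers they were 4 of 7, 2 of 5 and 0 of 1 in these white libraries, in the same order. In RP fat they were 2 of 5 for immune and 4 of 7 for progenitor markers. Mural levels in the white rat libraries thus rest on a gate with little backing, and the adipocyte gate was also less backed in mesPVAT and RP fat than in brown fat. Nuclei with none of the gate genes were 84.8%, 60.7% and 80.0% in the 10x library, mesPVAT and RP fat. They were 17.7% in taPVAT, 12.2% in BAT and 23.4% in the cow. Nuclei positive for several gate genes, also left without a class, were 0.425%, 6.80%, 2.21%, 21.9%, 19.7% and 31.9%, in the same order. Class levels in the white rat libraries thus rest on few and shallow nuclei. For mesPVAT and RP fat of the Parse run, the study saw no clear inflection point in the knee plots. It read this as difficulty in telling true nuclei from background RNA, so some barcodes counted as nuclei here may be background. In the cow, the 733 nuclei with several gate genes held 10892864 of the 16827260 UMIs, which no class level covers. The labelled depots were checked by Ucp1, the uncoupling protein that defines brown fat, which stood at 1782 CPM in taPVAT and 2072 in BAT, and at 63.4 CPM in mesPVAT and 89.9 in RP fat of the same run. It was at 0.808 CPM (1 UMI) in the 10x library and 0.654 CPM in the cow.

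Potassium channels set the resting voltage of a cell by letting potassium leave it. Voltage-gated channels (Kv) open on depolarisation, calcium-activated channels (Kcnma1, Kcnn) open with intracellular calcium, inward rectifiers (Kcnj) include the ATP-sensitive channel built from Kcnj8 or Kcnj11 with Abcc9 or Abcc8, and K2P channels (Kcnk) carry a background leak. In vessel walls these channels are known for dilation, in brown fat the leak channel encoded by Kcnk3 is known to counter thermogenic depolarisation, and in macrophages and lymphocytes potassium channels take part in activation.

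Mural nuclei had the highest summed level of these genes in both brown depots, and the promoters of 4 genes high in them are shown first for that reason. The sequences are the 250 bases before a listed start of each gene in rat RefSeq, build GRCr8, 5′ to 3′ on its strand. They are Abcc9 at chr4:177386349-177386598 on the minus strand, Kcnj8 at chr4:177246549-177246798 on the minus strand and Kcnq5 at chr9:31891282-31891531 on the minus strand. Kcnt1 is shown at chr3:29081089-29081338 on the plus strand, the upstream of its 2 listed starts. The windows of Abcc9, Kcnq5 and Kcnt1 lie inside the RefSeq span of the gene, so these starts are not its outermost. That of Kcnj8 adjoins the span. Capitals mark matches on either strand to TGACG (the core of a cyclic AMP response element), TGGGAA (the core bound by RBPJ, the nuclear partner of Notch) and CANNTG (an E-box).
Abcc9: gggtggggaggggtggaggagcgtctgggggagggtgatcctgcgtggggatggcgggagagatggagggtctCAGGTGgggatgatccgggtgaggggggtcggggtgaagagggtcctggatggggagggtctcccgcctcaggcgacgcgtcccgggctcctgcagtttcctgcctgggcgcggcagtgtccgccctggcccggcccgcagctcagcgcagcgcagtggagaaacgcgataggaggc
Kcnj8: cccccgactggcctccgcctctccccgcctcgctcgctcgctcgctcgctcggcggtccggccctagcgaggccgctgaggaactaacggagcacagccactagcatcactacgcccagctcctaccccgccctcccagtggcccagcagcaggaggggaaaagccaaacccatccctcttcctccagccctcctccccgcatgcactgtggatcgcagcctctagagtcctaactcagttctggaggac
Kcnq5: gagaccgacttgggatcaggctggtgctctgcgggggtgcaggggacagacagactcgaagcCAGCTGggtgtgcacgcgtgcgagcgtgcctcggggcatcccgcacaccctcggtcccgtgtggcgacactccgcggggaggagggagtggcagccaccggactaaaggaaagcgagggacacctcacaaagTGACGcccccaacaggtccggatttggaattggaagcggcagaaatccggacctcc
Kcnt1: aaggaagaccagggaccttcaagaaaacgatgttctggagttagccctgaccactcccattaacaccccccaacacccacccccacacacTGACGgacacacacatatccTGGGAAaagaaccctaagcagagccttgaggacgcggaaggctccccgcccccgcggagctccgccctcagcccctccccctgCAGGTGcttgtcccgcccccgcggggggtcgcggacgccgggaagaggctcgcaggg
Of these windows, that of Kcnt1 held all 3 motifs, that of Kcnq5 held TGACG and an E-box, that of Abcc9 held 1 E-box, and that of Kcnj8 held none. Each motif is short and common: TGACG was in 18.2% of all 33469 rat promoter windows of the same length, TGGGAA in 22.1% and CANNTG in 65.5%. Among the 71 windows of potassium channel genes the shares were 18.3%, 22.5% and 59.2%. A CArG box, the site of serum response factor in smooth muscle genes, was in 1.497% of all windows and in 0 of the 71. The G and C content of the windows was 71.2% for Abcc9, 66.8% for Kcnj8, 65.2% for Kcnq5 and 64.8% for Kcnt1. Kcnj8 and Abcc9 lie 16.3 kb apart on chromosome 4.

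Summed over all members, the mesPVAT level was 4680 CPM (4577 to 4786) by Parse and 1932 CPM (1855 to 2011) by 10x. RP fat gave 6237 CPM (6069 to 6407). The brown depots gave 2292 CPM (2251 to 2334) for taPVAT and 2146 CPM (2110 to 2182) for BAT, and the cow gave 2710 CPM (2685 to 2735). The white rat Parse libraries stood above every other library, and the brown pair differed by less than the distance of either from the white pair. In mesPVAT, 3 nuclei above 15000 UMIs held 700 of the member UMIs at 7407 CPM, and without them the level was 4515 CPM. Kv pore genes took the largest share of the member UMIs in all 6 libraries, from 36.2% in taPVAT to 57.5% in the cow. They were also the largest family, with 40 of 95 gene rows in the rat Parse libraries, 38 of 94 in the 10x library and 39 of 93 in the cow. Their lead is therefore not read as a result about Kv channels. In the cow, KCNB2 alone held 16050 of the 26235 Kv pore UMIs. Of the 95 rat Parse rows, 13 were K2P genes and 18 were inward rectifiers with the sulfonylurea receptors. K2P genes took 14.9% in taPVAT and 16.1% in BAT, against 5.07% in mesPVAT, 6.51% in RP fat, 7.65% in the 10x library and 6.66% in the cow. The brown shares rested mostly on Kcnk3, with 1463 of 1737 K2P UMIs in taPVAT and 1907 of 2177 in BAT. In the white Parse libraries Kcnk3 held 49 of 393 K2P UMIs in mesPVAT and 28 of 343 in RP fat. Inward rectifiers with the sulfonylurea receptors took 13.8% in taPVAT, 14.0% in BAT, 10.5% in mesPVAT, 9.77% in RP fat, 4.60% in the 10x library and 10.3% in the cow. Most of these UMIs in brown fat were of Abcc9, with 1119 of 1619 in taPVAT and 1434 of 1902 in BAT. Abcc9 held 293 of 814 in mesPVAT and 99 of 515 in RP fat.

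The gene with the most member UMIs differed between tissues. Kcnip1, which encodes a calcium-binding partner of Kv4 channels, led in the 10x library (606 UMIs), mesPVAT (805) and taPVAT (1967). Its partner family member Kcnip4 led in RP fat with 452 UMIs. Kcnk3 led in BAT with 1907 UMIs, or 14.1% of all member UMIs. KCNB2, a delayed rectifier Kv channel, led in the cow, whose genes are written in capitals, with 16050 UMIs, or 35.2%.

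**Figure D1:**
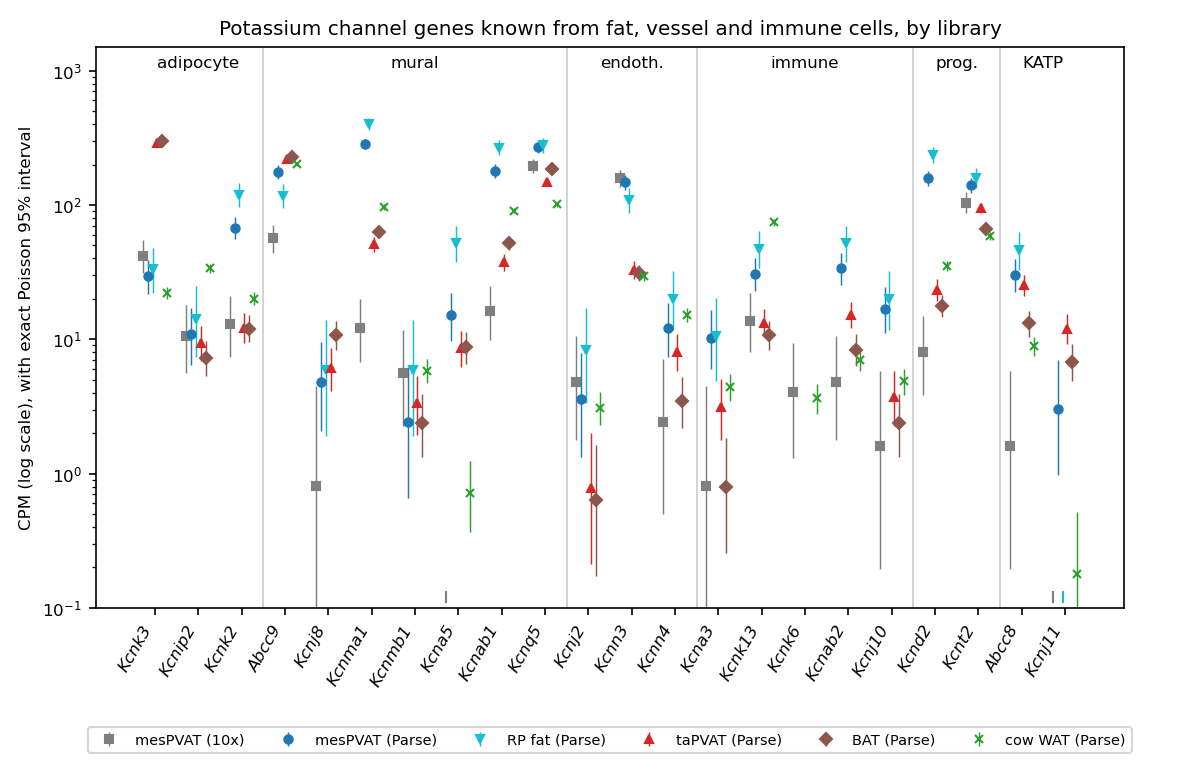
Level in CPM on a log axis of 22 potassium channel genes known from adipocytes, mural, endothelial, immune and progenitor cells and from the ATP-sensitive channel, 1 marker per library with its exact Poisson 95% interval; ticks at the lower edge are sums of 0 UMIs and genes not listed in a library have no marker. Kcnk3 sits near 300 CPM in taPVAT and BAT and between 22.2 and 42.0 CPM elsewhere, while Kcnma1 and Kcnd2 are higher in the white rat Parse libraries than in the other libraries.

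In adipocyte-gated nuclei, Kcnk3 and Kcnip1 were called by the class rule in both brown depots. Counts of class calls are to be read against the whole transcriptome. In taPVAT, 10 of 30 members with at least 30 UMIs over the 5 classes were called in some class, where 17.6% of all 9480 genes tested were called. In BAT, 9 of 30 members were called against 16.5% of all genes. In the cow, 16 of 47 members were called against 20.6%. In mesPVAT, 4 of 24 members were called against 7.4%, in RP fat 0 of 15 against 4.03%, and in the 10x library 3 of 5 against 15.4%. With each nucleus thinned to 200 UMIs, only 4 members in taPVAT, 5 in BAT and 1 in the cow kept enough UMIs, of which 1, 4 and 1 were called. The call in the cow was then KCNB2 in adipocyte-gated nuclei, which was not called at full depth.

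Kcnk3 encodes the background leak channel also called TASK. In taPVAT it stood at 390 CPM in adipocyte-gated nuclei (894 UMIs), 93.4 in mural, 63.0 in immune, 39.8 in endothelial and 10.7 in progenitor nuclei, which put adipocytes 4.18-fold (1.91 to 11.4) above mural nuclei. In BAT the levels were 397 CPM (1291 UMIs), 33.0, 21.1, 16.96 and 47.1 CPM for the same classes, 8.43-fold (1.51 to 333) above progenitor nuclei, of which only 18 were gated. Adipocyte-gated nuclei were thus the highest class in both brown depots, with the fold against the next class poorly fixed by counting. Within taPVAT the fold over mural nuclei was 2.33 in sublibrary 1 and 13.5 in sublibrary 2. In adipocyte-gated nuclei of the white depots Kcnk3 was at 46.6 CPM in mesPVAT (17 UMIs), 62.3 in RP fat (5 UMIs) and 36.6 in the 10x library (7 UMIs). In the cow it was again highest in adipocyte-gated nuclei, at 52.7 CPM against 13.6 in immune nuclei, a fold of 3.87 (1.97 to 8.17). KCNN2, a small-conductance calcium-activated channel, was the other gene called in cow adipocyte-gated nuclei, at 130 CPM (2.10-fold, 1.49 to 2.99).

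Kcnip1 was the adipocyte-gated gene seen across most rat libraries. Its level in adipocyte-gated nuclei was 987 CPM in the 10x library, 1101 in mesPVAT, 884 in RP fat, 444 in taPVAT and 174 in BAT, with folds over the next class of 5.59 (2.35 to 17.4), 3.76 (1.89 to 8.77), 1.91 in RP fat without a call, 5.12 (2.85 to 10.3) and 3.01 (1.45 to 7.52) in BAT. White depots were thus higher than brown depots in this class, and both mesPVAT chemistries gave close values. In the brown depots its transcripts were concentrated in few nuclei. In taPVAT, 1967 UMIs of Kcnip1 fell in 395 nuclei, while 1463 UMIs of Kcnk3 fell in 775 nuclei. In BAT, 889 UMIs of Kcnip1 fell in 289 nuclei. The white libraries were less concentrated, with 805 UMIs in 492 nuclei of mesPVAT, 371 in 298 of RP fat and 606 in 461 of the 10x library. The Kcnip1 gene (chr10:18723726-19093025, GRCr8) overlaps Kcnmb1, so reads in the shared stretch may have been assigned to either. In the cow, KCNIP1 was at 24.9 CPM in adipocyte-gated and 55.6 CPM in immune nuclei and was not called.

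Kcnn3, a small-conductance calcium-activated channel known from endothelium, was highest in adipocyte-gated nuclei of both mesPVAT libraries. The level was 272 CPM against 70.6 CPM in endothelial nuclei in the 10x library (3.85-fold, 1.01 to 32.6) and 329 CPM against 119 CPM in immune nuclei in the Parse library (2.76-fold, 1.299 to 7.01). No UMI of Kcnn3 fell in mural nuclei of the 10x library, where an empty sum, taken as 3 counts, allows up to 409 CPM. The 10x fold therefore does not cover mural nuclei. In taPVAT and BAT, adipocyte-gated nuclei held 39.7 and 33.5 CPM of Kcnn3, with no call.

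Of the remaining members known from adipocytes, Kcnip2 was between 7.28 and 33.8 CPM in every library, with 24 UMIs in adipocyte-gated nuclei of taPVAT and 26 in those of BAT. Kcnk2, a mechanically gated leak channel, was at 67.6 CPM in mesPVAT and 119 in RP fat and between 12.0 and 20.1 CPM in the other libraries, with no class call. Kcnd3 and Kcnc2, both Kv pore genes, were called in adipocyte-gated nuclei of taPVAT alone, at 86.9 CPM (2.71-fold, 0.915 to 13.3) and 51.1 CPM (2.31-fold, 0.961 to 7.24), and neither interval excludes a ratio of 1. In BAT, Kcnd3 was at 84.6 CPM in adipocyte-gated and 84.2 CPM in immune nuclei.

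**Figure D2:**
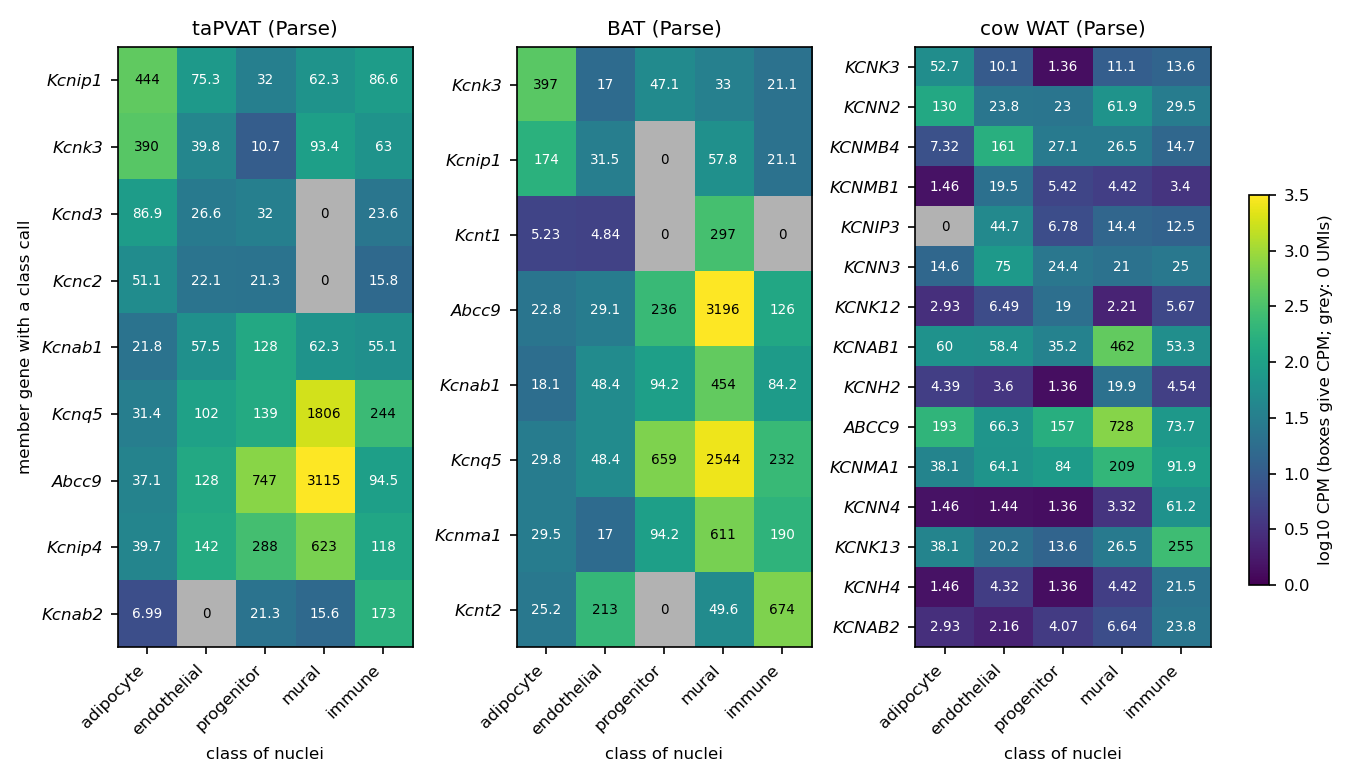
Level in CPM of potassium channel genes with a class call in taPVAT, BAT and cow WAT, by class of nuclei, coloured on a log10 scale with the CPM printed in each box and grey for sums of 0 UMIs. Abcc9 and Kcnq5 form the brightest boxes, in mural nuclei of the brown rat depots, at 3115 and 1806 CPM in taPVAT and 3196 and 2544 CPM in BAT.

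Mural nuclei had the highest summed level of potassium channel transcripts in both brown depots, at 7646 CPM (6985 to 8353) against 1616 to 2518 CPM in the other classes of taPVAT, and 9292 CPM (8757 to 9851) against 904 to 3627 CPM in BAT. Much of it was Abcc9 and Kcnq5, with 200 and 116 of the 491 mural member UMIs in taPVAT and 387 and 308 of 1125 in BAT. A sum without these genes was not made for the brown depots. In the cow the order differed, with 4062 CPM in adipocyte-gated, 3745 in progenitor and 3181 in mural nuclei, and that order rested on KCNB2. Without KCNB2, in a sum chosen after the values had been seen, mural nuclei of the cow were highest at 2955 CPM (2844 to 3069), followed by immune nuclei at 2198, endothelial at 1661, progenitor at 1479 and adipocyte-gated nuclei at 1265 CPM. In mesPVAT (3592 to 5292 CPM) and RP fat (5316 to 6383 CPM) the classes lay close together. Members called in mural nuclei were 3 of 30 in taPVAT, 5 of 30 in BAT and 5 of 47 in the cow, against 1.49%, 2.42% and 2.8% of all genes. The mural class of the 10x library held 36 nuclei and 12 member UMIs.

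Abcc9 encodes the vascular sulfonylurea receptor. In taPVAT it was at 3115 CPM in mural nuclei (200 UMIs), 747 in progenitor, 128 in endothelial, 94.5 in immune and 37.1 in adipocyte-gated nuclei, a fold of 4.17 (3.16 to 5.56) over progenitor nuclei. In BAT the mural level was 3196 CPM (387 UMIs) and the progenitor level 236 CPM (5 UMIs), a fold of 13.6 (5.77 to 42.0). In mesPVAT the mural level was 641 CPM (18 UMIs), 2.503-fold (0.998 to 7.09) above progenitor nuclei. The cow showed the same highest class, with ABCC9 at 728 CPM in mural nuclei (658 UMIs) and 193 CPM in adipocyte-gated nuclei, a fold of 3.77 (3.12 to 4.58). RP fat gave 186 CPM in mural and 190 in progenitor nuclei, and no call.

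Kcnj8, the pore that pairs with Abcc9, was far less counted. It gave 9 UMIs in mural nuclei of taPVAT (140 CPM) and 21 in those of BAT (173 CPM), against 1.31 and 1.54 CPM in adipocyte-gated nuclei. Over the 5 classes it held 15 UMIs in taPVAT and 29 in BAT, under the minimum of 30, and it held 1 to 8 UMIs in the whole of each white rat library. It was not listed by symbol in the cow. Per kilobase of gene span, Kcnj8 was 10.6 times the median member in taPVAT and 20.5 times in BAT, and Abcc9 was 18.0 and 20.5 times. Division by span raises short genes, so these ratios do not rank genes of different length.

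Kcnq5, a Kv7 channel of smooth muscle, was the other gene strong in mural nuclei of brown fat. It reached 1806 CPM in taPVAT (116 UMIs), 7.40-fold (4.94 to 11.4) above immune nuclei, and 2544 CPM in BAT (308 UMIs), 3.86-fold (2.26 to 7.14) above progenitor nuclei. In the cow KCNQ5 was highest in immune nuclei, at 321 CPM against 170 CPM in mural nuclei, and was not called.

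Kcnt1, a sodium-activated channel, was at 297 CPM in mural nuclei of BAT (36 UMIs) and 5.23 CPM in adipocyte-gated nuclei, a fold of 56.9 (31.1 to 108). No UMI fell in the progenitor or immune nuclei of BAT, where a sum of 0 UMIs, taken as 3 counts, allows up to 141 and 63.2 CPM. The fold was taken against adipocyte-gated nuclei, the next class with a UMI, and does not cover the progenitor and immune nuclei. In taPVAT, Kcnt1 held 15 UMIs in mural nuclei (234 CPM) and 17.7 CPM in endothelial nuclei. In the cow its highest level was 18.1 CPM, in immune nuclei.

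Kcnab1, a cytoplasmic beta subunit of Kv1 channels, was called in mural nuclei of BAT at 454 CPM (4.82-fold, 1.27 to 40.8) and of the cow at 462 CPM (7.70-fold, 5.58 to 10.9). In taPVAT it was called in progenitor nuclei at 128 CPM on 12 UMIs, 2.06-fold (0.623 to 8.74) above mural nuclei, but gating by the other markers gave 0.557 and sublibrary 2 alone gave 0.960, so the direction there did not hold. Kcnma1, the pore of the large-conductance calcium-activated channel, was called in mural nuclei of BAT at 611 CPM (3.23-fold, 1.61 to 7.33) and of the cow at 209 CPM (2.28-fold, 1.74 to 2.99). Over all nuclei of BAT, the 5 with the most held 100 of 329 UMIs for Kcnab1 and 78 of 399 for Kcnma1. In taPVAT Kcnma1 was at 125 CPM in mural and 117 CPM in progenitor nuclei. Kcnip4 was called in mural nuclei of taPVAT, at 623 CPM (2.16-fold), while in BAT it was at 942 CPM in progenitor and 876 in mural nuclei.

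KCNH2, a Kv11 channel of the heart, was called in cow mural nuclei, at 19.9 CPM (4.39-fold). Kcnmb1, the smooth muscle partner of Kcnma1, was low: 4 UMIs in mural nuclei of BAT, 0 in those of taPVAT, and in the cow 4.42 CPM in mural against 19.5 CPM in endothelial nuclei (27 UMIs). Kcna5, a Kv1 channel of arterial muscle, held 0 UMIs in mural nuclei of taPVAT and 2 in those of BAT.

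In endothelial nuclei 0 of 5 to 30 tested members were called in each rat library, where 0.336% to 4.1% of all genes were. In the cow 4 of 47 were called, against 4.08% of 12436 genes. KCNMB4, a regulatory subunit of the large-conductance channel, stood at 161 CPM in cow endothelial nuclei (223 UMIs) and 27.1 CPM in progenitor nuclei, a fold of 5.93 (3.75 to 9.89). KCNN3 was at 75.0 CPM there, 3.00-fold (1.88 to 5.00) above immune nuclei. KCNIP3, at 44.7 CPM (3.11-fold), and KCNMB1, at 19.5 CPM (3.59-fold), completed the group. Kcnmb4 held 3 UMIs in endothelial nuclei of BAT and 4 in those of taPVAT. Kcnj2, the classical endothelial inward rectifier, had 4 to 7 UMIs in each rat library, and 14 of its 52 UMIs in the cow fell in endothelial nuclei. KCNQ1 was at 232 CPM in cow endothelial nuclei and 152 CPM in immune nuclei, and was not called.

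In immune nuclei 4 of 47 cow members were called, close to the 6.21% of all genes called there. KCNN4, the intermediate-conductance calcium-activated channel of lymphocytes and macrophages, was at 61.2 CPM (54 UMIs) against 3.32 CPM in mural nuclei, a fold of 18.5 (5.99 to 92.3). KCNK13, a leak channel of macrophage-like cells, was at 255 CPM (225 UMIs) against 38.1 CPM in adipocyte-gated nuclei, a fold of 6.71 (4.46 to 10.5). KCNH4 and KCNAB2 were lower, at 21.5 CPM (4.87-fold) and 23.8 CPM (3.59-fold). In the rat, Kcnab2 was called in immune nuclei of taPVAT at 173 CPM (22 UMIs), 8.12-fold (2.00 to 71.2) above progenitor nuclei, and held 5 UMIs (105 CPM) in those of BAT. Kcnn4 held 8 UMIs in immune nuclei of taPVAT (63.0 CPM) and 0 in those of BAT, and Kcnk13 held 10 (78.8 CPM) and 6 (126 CPM). Kcna3, the Kv channel of T cells, held 12 UMIs in immune nuclei of the cow (13.6 CPM), 5 in those of taPVAT and 0 in those of BAT. Kcnj10 had no class call, with 0 UMIs in immune nuclei of taPVAT and BAT and 5.67 CPM in those of the cow. Kcnk6 was listed only in the 10x library and the cow, with 5 and 61 UMIs.

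Kcnt2, the sodium-activated relative of Kcnt1, was called in immune nuclei of BAT, at 674 CPM (32 UMIs) against 213 CPM in endothelial nuclei, a fold of 3.16. In taPVAT its level was also highest in immune nuclei, at 378 CPM, with 235 CPM in progenitor nuclei and no call. In the cow KCNT2 was highest in progenitor nuclei, at 114 CPM. Kcnh7 was called in immune nuclei of mesPVAT at 170 CPM against 71.3 CPM, a fold of 2.39 (0.509 to 22.4) that its interval does not separate from 1. The members called in progenitor nuclei were Kcnab1 in taPVAT, described above, and KCNK12 in the cow, at 19.0 CPM against 6.49 CPM (2.93-fold). Kcnd2, a Kv4 channel, had no class call, and in taPVAT stood at 93.4 CPM in mural nuclei on 6 UMIs and at 14.0 to 26.6 CPM in the other classes.

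The ATP-sensitive pair of beta cells, Kcnj11 with Abcc8, was present at a low level in brown fat. Kcnj11 held 61 UMIs in taPVAT (12.0 CPM, 9.15 to 15.4), 43 in BAT (6.81, 4.93 to 9.17), 5 in mesPVAT, 0 in RP fat and the 10x library, and 3 in the cow. For the libraries at 0, the limit of 3 counts was 3.55 CPM of Kcnj11 in RP fat and 2.42 CPM in the 10x library. Of these UMIs, 35 in taPVAT and 30 in BAT fell in adipocyte-gated nuclei, at 15.3 and 9.23 CPM. Abcc8 was at 33.6 CPM in adipocyte-gated nuclei of taPVAT and 16.0 in those of BAT. Adipocyte-gated nuclei of mesPVAT held 10.96 CPM of Abcc8 and those of RP fat 49.8, on 4 UMIs each. Over all nuclei Abcc8 was at 25.3 CPM in taPVAT, 13.1 in BAT, 30.2 in mesPVAT and 46.1 in RP fat. In taPVAT both genes were highest in mural nuclei, at 31.1 CPM of Kcnj11 (2 UMIs) and 62.3 CPM of Abcc8 (4 UMIs), with no call. In BAT the highest class was adipocyte-gated for Kcnj11 and immune for Abcc8, the latter on 1 UMI. Per kilobase of span, Kcnj11 was 33.0 times the median member in taPVAT, 20.6 times in BAT, 2.12 times in mesPVAT and 0 in RP fat, with the same limit for a short gene.

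Between brown and white rat depots of the Parse run, a member was called when the lower library of one pair was at least 2-fold above the higher of the other. In a sum over nuclei, fewer cells of a type and less RNA per cell cannot be told apart, and each depot is 1 library. Kcnk3 was the only one of 76 members called higher in brown fat, where 6% of 21317 genes were called in that direction. Its levels were 287 CPM (272 to 302) in taPVAT, 302 (288 to 316) in BAT, 29.6 (21.9 to 39.1) in mesPVAT and 33.1 (22.0 to 47.9) in RP fat, so the lower brown library was 8.66-fold above the higher white one. Both sublibraries showed it, although they split the nuclei of the same library and are not replicates. Kcnk3 was at 279 and 295 CPM in taPVAT, 292 and 312 in BAT, 23.2 and 36.5 in mesPVAT and 35.5 and 30.01 in RP fat. Kcnj11 was 1.92-fold higher in brown fat with the 0 UMIs of RP fat set to 3 counts, and was not called. The ratio for Abcc9 was 1.24. With totals that leave out mitochondrial genes and the most counted gene, Kcnj11 joined Kcnk3 above the limit.

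In the other direction, 54 of the 76 members were called higher in white fat, where 43.7% of all genes were. The part of background RNA, which the study could not clearly separate from nuclei in either white depot, was not tested. Members called so included Kcnmb3 (8.90-fold), Kcnh7 (8.33-fold), Kcnmb2 (6.86-fold) and Kcnd2 (6.78-fold). The fold of Kcnmb3 rested on 14 and 11 UMIs in mesPVAT and RP fat and 3 and 6 in taPVAT and BAT. Kcnd2 was at 158 and 237 CPM in mesPVAT and RP fat against 23.3 and 17.7 CPM in taPVAT and BAT. Kcnma1 was at 285 and 402 CPM in white against 50.8 and 63.2 CPM in brown fat, and Kcnip4 at 343 and 535 against 98.2 and 141 CPM. The members called higher in white fat spanned a median of 51.7 kb of genome, and all genes called so a median of 42.4 kb, while Kcnk3 spans 35.9 kb and the genes called higher in brown fat a median of 20.3 kb. The span was known for 3842 of the 9314 genes called higher in white fat and for 1150 of the 1278 called higher in brown fat, so the median of 42.4 kb covers a minority of its genes. The 21 members called in neither direction had a median span of 57.0 kb, above that of the members called higher in white fat.

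Within adipocyte-gated nuclei alone, a comparison chosen after the values had been seen, Kcnk3 was again the only member called higher in brown fat, of 43 tested, where 7.04% of 12508 genes were called. The gap was 6.27-fold, on 17 and 5 UMIs of Kcnk3 in the white libraries. Higher in white fat were 25 of the 43, against 23.2% of all genes. They included Kcnq3 (8.66-fold), Kcnmb2 (8.03-fold), Kcnd2 (7.65-fold) and Kcnn3, at 329 and 137 CPM against 39.7 and 33.5 CPM (3.45-fold). Kcnip1 missed the limit in this class, with a gap of 1.99-fold.

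Between the brown depots, 2 of 59 members were called higher in taPVAT, where 4.69% of genes were, and 0 in BAT, where 0.706% were. Kcnip1 was at 386 CPM in taPVAT and 141 in BAT, a fold of 2.74 (2.53 to 2.97), with sublibrary levels of 353 and 420 CPM in taPVAT and 120 and 162 CPM in BAT. Kcnn4 was at 8.04 and 3.48 CPM, a fold of 2.31 (1.34 to 4.07) on 41 and 22 UMIs. Between the white depots, 0 of 59 members were called higher in mesPVAT, where 6.06% of genes were, and 9 in RP fat, where 7.52% were. Among those 9 were Kcna5, Kcng3, Kcnc1, Kcnk5, Kcnj15, Kcnk12, Kcnj1 and Kcnt1, each on 17 to 44 UMIs per library. The largest gap was that of Kcna5, at 15.1 CPM in mesPVAT and 52.1 CPM in RP fat, a ratio of 0.290 (0.170 to 0.484).

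Among the rat Parse libraries, the order of the members within a library followed the length of the gene more closely in the white depots than in the brown ones. Across 95 members, the Spearman correlation of UMIs with gene span was 0.870 in mesPVAT, 0.884 in RP fat, 0.786 in taPVAT and 0.783 in BAT, and across 14560 genes with at least 30 UMIs over these libraries it was 0.681, 0.771, 0.397 and 0.382. These are descriptions over genes that share 1 library and its depth. The median member had 0.385 and 0.599 CPM per kb in mesPVAT and RP fat and 0.0981 and 0.0894 in taPVAT and BAT, where the median of all those genes was 0.719, 0.749, 0.732 and 0.667. Per kilobase, the median member was under the median gene in each of the 4 libraries, and further under it in brown than in white fat. The members were not held to the minimum of 30 UMIs, which 76 of them reach, and the genes were. The medians and correlations of the members and of all genes are therefore not like for like. Over 94 members the 10x library gave a correlation of 0.652 and a median of 0.0194 CPM per kb.

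Against the median member of its library, Kcnk3 was 81.4 times higher per kilobase in taPVAT and 93.9 times in BAT, but 2.14 times in mesPVAT and 1.54 times in RP fat. Abcc9 was 18.0 and 20.5 times higher in the brown depots and 3.71 and 1.58 times in the white ones. Kcna5, a gene of 3.46 kb, was high in all 4, at 11.3 in mesPVAT, 25.1 in RP fat, 25.4 in taPVAT and 28.1 in BAT. The white libraries were also shallower, with median nuclei of 346 and 213 UMIs against 1246 and 1706. With nuclei cut into 4 groups by depth, the summed member level differed between the shallowest and the deepest group. It was 3153 against 1946 CPM in taPVAT, 2991 against 2034 in BAT, 5115 against 4517 in mesPVAT and 6927 against 6065 in RP fat. In the 10x library the order was the reverse, at 1589 against 2065 CPM. The part of depth and gene length in the white-fat calls was not tested.

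**Figure D3:**
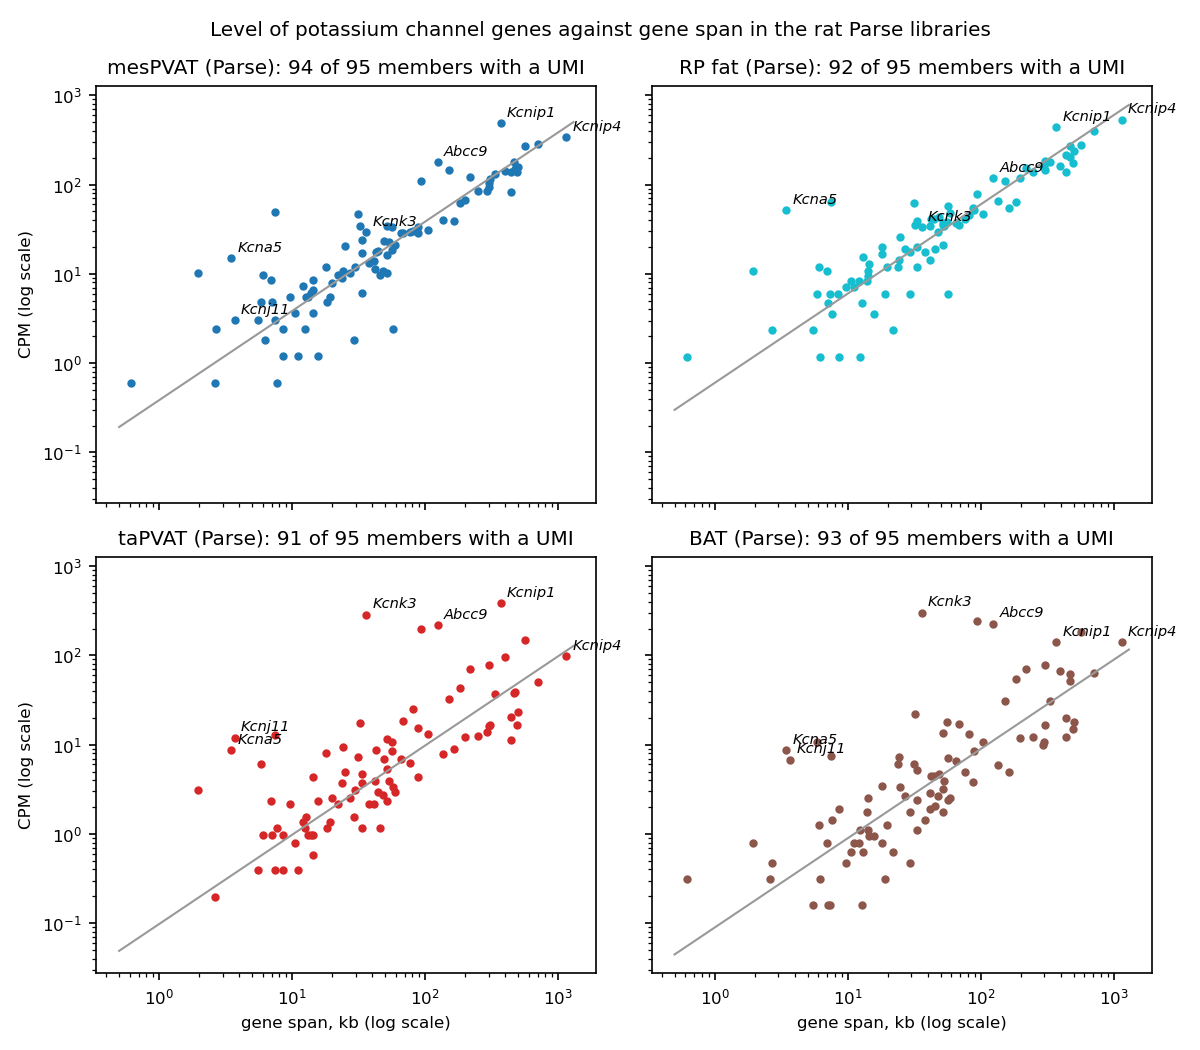
Level in CPM against gene span in kilobases, both on log axes, for the potassium channel genes with at least 1 UMI in each rat Parse library; each point is a gene and the line has the slope of equal CPM per kb at the median member. Kcna5 lies well above the line in each library, while Kcnk3, Abcc9 and Kcnip1 lie further above it in taPVAT and BAT than in mesPVAT and RP fat.

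The mesPVAT libraries of the 10x and Parse kits differed in chemistry, isolation, sorting, batch and gene annotation, which cannot be told apart. Members were joined for 91 genes. Of 47 with enough UMIs, 4 were called higher with 10x, where 24.2% of 10933 genes were, and 36 were called higher with Parse, where 29.2% were. Higher with 10x were Kcne2, at 38.0 against 2.41 CPM (15.7-fold, 5.75 to 60.1), Kcnk5, at 71.1 against 17.5 CPM (4.06-fold, 2.64 to 6.41), Kcnh2, at 108 against 34.4 CPM (3.15-fold, 2.29 to 4.37), and Kcnd3, at 270 against 123 CPM (2.20-fold, 1.84 to 2.64). Higher with Parse were Kcnmb2 (ratio 0.00708), Kcnma1 (0.0425), Kcnd2 (0.0511) and Kcnip4 (0.0660) among others. Kcnip1 at 490 and 486 CPM, Kcnn3 at 158 and 147 CPM and Kcnk3 at 42.0 and 29.6 CPM lay within the 2-fold limit between the kits.

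KCNB2, the most counted member in the cow, was at 954 CPM (939 to 969) in cow WAT, against 149 CPM in mesPVAT, 202 in RP fat, 38.6 in taPVAT and 62.4 in BAT, values set side by side and not compared as folds because the species were aligned to different gene models. In the cow it was at 2797 CPM in adipocyte-gated nuclei (1911 UMIs) and 2266 CPM in progenitor nuclei (1672 UMIs), against 277 CPM in immune, 226 in mural and 192 in endothelial nuclei. The first 2 classes differed by less than the 2-fold limit, so the gene was not called. The sublibraries gave 1005 and 909 CPM. Of the 16050 KCNB2 UMIs, 10768 fell in nuclei positive for several gate genes, outside the classes. The transcripts of Kcnb2 fell in 1064 nuclei, with 586 UMIs in 1 nucleus and 2002 in 5. The highest class level of Kcnb2 in the rat was 353 CPM, in progenitor nuclei of RP fat on 13 UMIs.

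Of 28 members tested for class in both BAT and the cow, 10 had the same highest class, and 4 called in both were called in the same class: Abcc9, Kcnab1 and Kcnma1 in mural nuclei and Kcnk3 in adipocyte-gated nuclei. With taPVAT there were 27, of which 8 had the same highest class, and of 4 called in both, 3 had the same class: Abcc9, Kcnab2 and Kcnk3. The fourth was Kcnab1. The same shares over all genes were not computed, so these counts do not say whether classes are shared between species. The highest class of a gene without a call can rest on 1 UMI, as for Kcnk2 in progenitor nuclei of BAT. Kcnip1 and Kcnn3 had different orders, as the plot of levels by class and library shows. Kcnn3 was 75.0 CPM in endothelial and 14.6 CPM in adipocyte-gated nuclei of the cow, where each rat library other than RP fat had more in adipocyte-gated than in endothelial nuclei.

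**Figure D4:**
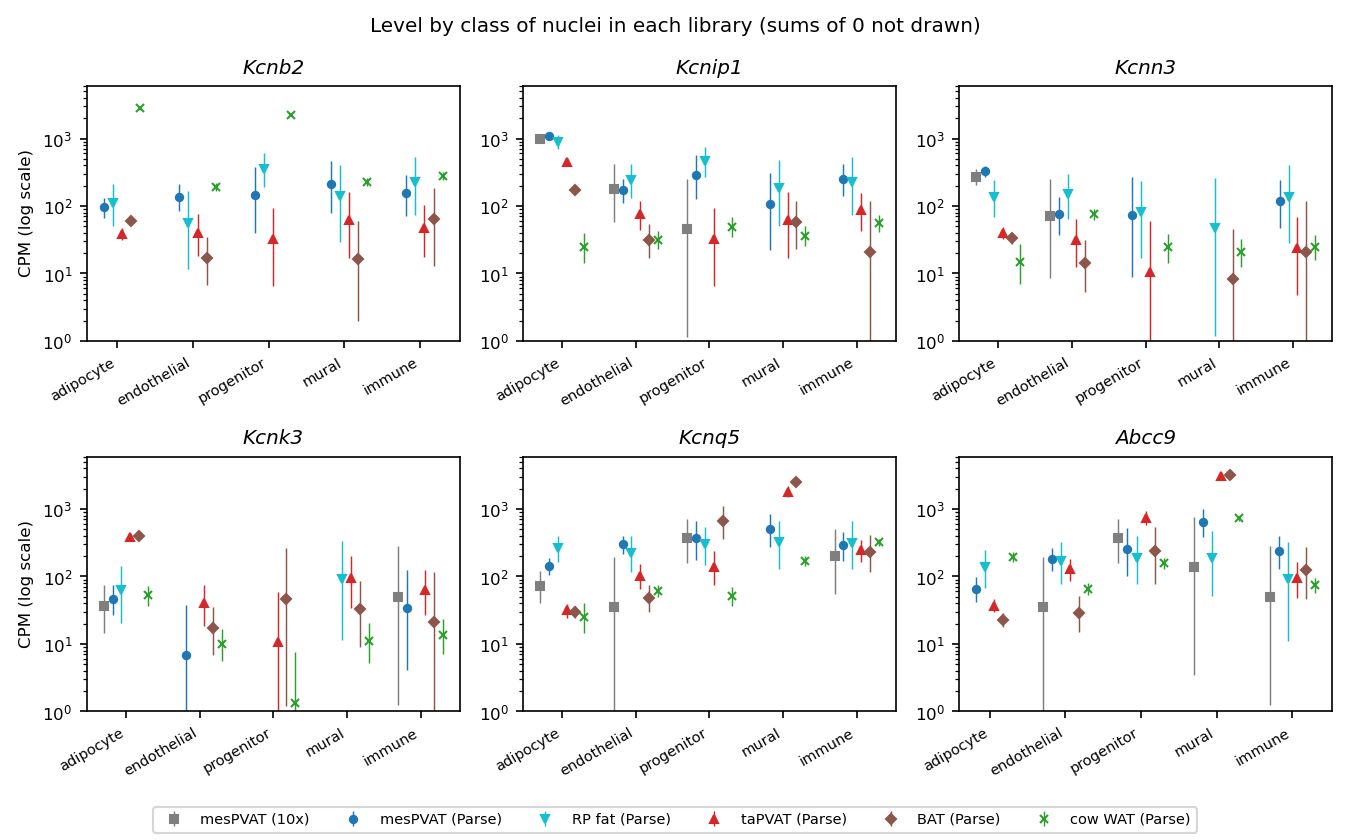
Level in CPM on a log axis by class of nuclei for Kcnb2, Kcnip1, Kcnn3, Kcnk3, Kcnq5 and Abcc9 in the 6 libraries, with exact Poisson 95% intervals; sums of 0 UMIs are not drawn. Cow Kcnb2 stands at 2797 CPM in adipocyte and 2266 CPM in progenitor nuclei, Kcnk3 is highest in adipocyte nuclei of taPVAT and BAT, and Abcc9 is highest in mural nuclei of taPVAT, BAT and the cow.

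Genes that work with potassium channels were read from 4 lists: pumps and cotransporters, subunits without the Kcn prefix, calcium channels and stores, and other potassium-permeable channels. Among pumps and cotransporters, 4 of 8 tested genes were called in taPVAT, 3 of 8 in BAT, 2 of 9 in the cow and 1 of 5 in mesPVAT, where 17.6%, 16.5%, 20.6% and 7.4% of all genes were called in some class, so that the cow count was near the background. Fxyd1, a regulator of the sodium-potassium pump, was called in adipocyte-gated nuclei of taPVAT (117 CPM) and BAT (132 CPM).

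Among calcium channels and stores, 2 of 8 genes were called in taPVAT and 5 of 8 in BAT and in the cow, all in mural nuclei, where 1.49% of all genes were called in taPVAT, 2.42% in BAT and 2.8% in the cow. Cacna1c, the L-type channel pore of smooth muscle, was at 1869 CPM in mural nuclei of taPVAT (4.49-fold) and 3808 CPM in those of BAT (10.1-fold). Cacna1h, a T-type pore, was at 273 CPM in mural nuclei of BAT and 4.00 CPM in adipocyte-gated nuclei, with 0 UMIs in progenitor and immune nuclei, and at 123 CPM in mural nuclei of the cow (6.45-fold). In the cow, Trpc6 (1193 CPM, 16.97-fold), Cacnb2 (993 CPM, 8.76-fold), Ryr2 (801 CPM, 6.85-fold) and Cacna1d (696 CPM, 8.40-fold) were called in the same class. In mesPVAT 0 of 7 were called, and in RP fat and the 10x library no gene of the 4 lists was. Of the other subunits 2 of 3 were called in taPVAT, 1 of 3 in BAT and 1 of 2 in the cow, lists too short to read against the background. Lrrc52, a gamma subunit of calcium-activated potassium channels, was called in adipocyte-gated nuclei of taPVAT (17.03 CPM) and BAT (15.1 CPM), Dpp10, a Kv4 partner, in immune nuclei of taPVAT (165 CPM, 2.08-fold), and in the cow Dpp6, a relative of Dpp10, was at 374 CPM in endothelial nuclei (2.27-fold). Of the other potassium-permeable channels, 0 of 3 were called in taPVAT, 0 of 3 in BAT and 1 of 4 in the cow, Tmem38a in mural nuclei.

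Some nuclei carried at least 2 markers of cells outside the 5 classes, and members were summed over them in a comparison chosen after values had been seen. In the 10x library, 88 nuclei with mesothelial markers (Msln, Upk3b, Wt1, Krt19, Lrrn4) held 65 UMIs of Kcnd3, or 1624 CPM (1253 to 2070), against 225 CPM in all other nuclei. They also held 40 UMIs of Kcnq5, or 999 CPM against 169. In taPVAT, 7 such nuclei held 13 UMIs of Kcnd3, or 1064 CPM against 68.0. In BAT, 32 nuclei with Schwann cell markers held 344 CPM of Kcnd3 and 247 CPM of Kcnc2, against 63.3 and 48.3 CPM in the others. The 14 UMIs of Kcnj3 in 12 muscle-marked nuclei of taPVAT (428 CPM) lay in 1 nucleus.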

How the data were processed

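The deposited values are UMI counts per gene and nucleus. For the Parse libraries the authors aligned reads to GRCr8 and ARS-UCD1.3 with split-pipe and deposited the filtered matrices. The 10x counts were made with CellRanger, and the study names Rnor_6.0. The submitters' processing notes name FastQC and Scanpy. All deposited barcodes were used. No doublet caller was run, and nuclei positive for several gate genes were kept out of the classes, so doublets within a class remain.

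UMIs were summed over nuclei of a library or class and scaled to CPM of the same nuclei, with exact Poisson 95% intervals. A sum of 0 was set to 3 counts in folds between libraries. For class folds the next class was the one with the next highest CPM, and 3 counts were used only where that class held 0 UMIs. A gene was called when the highest class was at least 2-fold above the next with at least 10 UMIs, among genes with at least 30 UMIs over the classes, and between libraries at 2-fold or more among genes with at least 30 UMIs. Depots, kits and species have 1 library each, so no test was run. The calling rules were tried on simulated counts, drawn independently for each gene and each class or library. That setting leaves out transcripts clumped in single nuclei, as seen for KCNB2, so it does not cover such genes. Gene span, overlaps and promoters came from RefSeq tables of GRCr8. Of the members, 94 had a row there, 43 overlapped another gene and 12 a protein-coding gene, and whether counting used strand was not given in the sources used here. The 10x and Parse gene tables were joined by gene ID for 19834 genes and by symbol for 1013. Kcnj14 has 2 rows in the Parse table.

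The members and lists were chosen with earlier results of these data known. Genes are named if they are textbook members for adipocytes, mural, endothelial, immune or progenitor cells or the ATP-sensitive channel, were called in a comparison (at most 10 per comparison and 5 per class and library, largest fold first) or were among the 5 members with the most UMIs in a library; Kcnj3, and Kcnc2 and Kcnd3 in marked nuclei, were chosen after their values were seen. Some genes that the rule names are not reported here. Alternatives were the study's fixed limits (100 to 15000 UMIs, at most 4500 genes, at most 3% mitochondrial UMIs), a total without mitochondrial genes and the top gene, a minimum of 100 UMIs, a 3-fold limit, other gates, thinning to 200 UMIs per nucleus and each sublibrary alone. Software versions were matplotlib 3.10.9, pandas 2.3.3, scipy 1.17.1 and numpy 2.4.6 on Python 3.11.15.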

Additional observations from a re-analysis of the deposited data

Results flagged for a closer look

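For 4 genes the adipocyte-gated over endothelial ratio of CPM lay on one side of 1 in each rat library that could be read and on the other side in the cow. Members were read where these classes held at least 30 UMIs in the cow and in at least 3 rat libraries, and most of them did not switch. The share of all genes that switch was not computed, so the count of 4 is not a result about the members. None of these differences was tested, since each library is 1 sample, and no interval was computed for the ratios. For Abcc9 the ratio was 2.91 in the cow and 0.289 to 0.783 in 3 rat libraries. For Kcnab1 it was 1.03 in the cow and 0.375 to 0.690 in 3 rat libraries, and the cow value is close to 1. For Kcnip1 it was 0.785 in the cow and 3.63 to 6.48 in 5 rat libraries. For Kcnn3 it was 0.195 in the cow and 1.28 to 4.39 in 4 rat libraries. Cow adipocyte-gated nuclei were 111 of 2297, and the nuclei differ between species in depth, kit run and gene models, whose part was not tested.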

How the results depend on the processing

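Of 110 comparisons of a count of calls or a summed level with an alternative, 75 stayed within their limit and 35 moved, and of 275 folds of named genes 244 stayed, 29 moved and 2 reversed. For a cause not given by the construction of an alternative, the cause was not tested. No paired analysis was possible because each group holds 1 library.

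Class calls (3, 4, 0, 10, 9 and 16 in the 10x library, mesPVAT, RP fat, taPVAT, BAT and cow) were 1 in 10x, mesPVAT, taPVAT and cow and 4 in BAT with nuclei thinned to 200 UMIs, which leaves fewer genes tested. A minimum of 100 UMIs gave 1 of 1 tested in 10x, 2 of 5 in mesPVAT and 8 of 24 in cow, so the number tested fell too. A 3-fold limit gave 1 in mesPVAT and 6 in taPVAT. The gate by other markers gave 7 of 10 tested in 10x and 9 of 21 in cow, and the gate by 2 UMIs gave 0 of 1 in 10x. Sublibrary 1 gave 2 of 14 tested in mesPVAT and 5 of 18 in taPVAT, and sublibrary 2 gave 1 of 3 in RP fat. Shares of all genes were not computed for class calls in these settings. Kcnab1 in taPVAT, called in progenitor nuclei, reversed to 0.557 by other markers and 0.960 in sublibrary 2.

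Members higher in brown fat were 2 of 76 without mitochondrial genes and the top gene and 2 of 60 in sublibrary 1. Of all genes, 7.37% and 7.34% were called so. Members higher in white fat were 34 of 52 tested at a minimum of 100 UMIs, where 27.1% of all genes were. In adipocyte-gated nuclei they were 25 of 43, where 23.2% of all genes were. Fewer members were tested in both than the 76 of the main comparison. Members higher in taPVAT than BAT were 5 within the study's limits, 1 at 100 UMIs, 0 at 3-fold and 7 in sublibrary 1, and 1 was higher in BAT in sublibrary 2. Members higher in RP fat than mesPVAT were 0 at 100 UMIs, 1 at 3-fold, 4 in sublibrary 1 and 5 in sublibrary 2. Members higher with Parse than 10x were 16 at 100 UMIs. A higher minimum or 1 sublibrary leaves fewer members tested in these pairs too, and their shares of all genes were not computed. Summed levels were 4519 CPM in mesPVAT within the study's limits, and without mitochondrial genes and the top gene 4946 in mesPVAT, 2612 in taPVAT, 2455 in BAT and 3049 in cow.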
